A study of Mus musculus with 12 samples.

Results

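Fatty acids and cholesterol are built from acetyl-CoA by a small set of enzymes, and the 35 genes described here are those enzymes and the proteins that control them. The members were chosen by name, as the rows of the deposited counts whose gene symbol is on a fixed list, and all 35 were found among the 24079 genes of the file. They are 4 genes of fatty acid synthesis, 9 of desaturation and elongation, 6 of the mevalonate pathway, 11 of sterol synthesis and 5 of the control system built around the sterol regulatory element binding proteins (SREBP). All 35 passed the filter of at least 15 reads over the 12 libraries that left 17823 genes for testing.

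Ribosome-bound mRNA was sequenced from the hippocampus of Fmr1-/y males and wild-type littermates aged 2 to 6 months, with 6 libraries per genotype and 4 to 6 mice pooled in every library. Fmr1 encodes FMRP, the RNA-binding protein lost in fragile X syndrome, and the comparison asks which mRNAs are bound to ribosomes at a different level in its absence. All mice of both genotypes carried Wfs1-CreERT2 and RiboTag, a conditional allele of the ribosomal protein gene Rpl22. After 3 days of tamoxifen, Cre driven by the Wfs1 promoter switches the allele to an HA-tagged form, and tagged ribosomes were pulled down from the hippocampus 1 week later. The tag therefore marks the cells in which this transgene was active, chiefly CA1 pyramidal neurons. Because Fmr1 is absent throughout life and in every cell of the knockout mice, effects within CA1 neurons and effects through other cells cannot be told apart. Reads counted on genes numbered 39400980 to 55745464 per wild-type library and 43106629 to 65565479 per Fmr1-/y library. Wild-type libraries held 1971 to 2608 reads of Fmr1 itself, whereas 5 of the Fmr1-/y libraries held 0 and the remaining one held 1, so the genotype labels matched the reads. All 7 markers of CA1 pyramidal neurons on the list used here were detected in every library, among them Wfs1 with a mean of 1272 CPM (reads scaled to a common library size) in wild-type libraries. Markers of astrocytes, choroid plexus and other cell types were also detected in every library, and their values are given beside the results they move with.

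As background, cytosolic acetyl-CoA is made from citrate, carboxylated to malonyl-CoA and joined by fatty acid synthase into saturated chains, which elongases extend and desaturases modify. The mevalonate pathway turns acetyl-CoA into isoprenoids, and the sterol branch folds and trims squalene into cholesterol. SREBP precursors sit in the endoplasmic reticulum with their escort Scap and are held there by the Insig proteins when sterols are plentiful. When sterols are scarce, SREBP moves to the Golgi, is cut and enters the nucleus, where it switches on most of these enzymes together with the factors NF-Y, which binds CCAAT, and Sp1, which binds GC boxes. The brain makes its own cholesterol, astrocytes and oligodendrocytes make much of it, and adult neurons are thought to rely in part on cholesterol delivered by glia.

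RefSeq start site windows (assembly GRCm38.p6, the same build as the mm10 genome used for the reads) were found for 29 of the 35 members. They were searched on both strands from 250 bases before to 50 after each start for CCAAT, the GC box GGGCGG, the E-box CACGTG and TCACNCCAC, a core of the sterol regulatory element. Some of these windows lie inside the annotated span of the gene, at an internal start, among them those of Fasn, Fads3, Acaca and Acacb. CCAAT was present in 24 of these 29 genes (82.8%), against 42.1% of the 13825 tested genes with a window. It occurred in all 5 mevalonate pathway genes and all 9 sterol synthesis genes with a window, but in 3 of 6 genes of desaturation and elongation. GGGCGG was present in 23 of 29 members (79.3%) against 61.4%, and CACGTG in 6 (20.7%) against 10.7%. TCACNCCAC was present in 1 member, Hmgcs1, or 3.45% against 1.42% of tested genes. None of these motifs contains another, and the matches describe the windows without showing that a factor binds there. The 250 bases before the start are printed below, 5′ to 3′ on the strand of the gene, for the member with the lowest fitted difference (Fasn, chr11:120824548-120824797, minus strand), 2 members whose values reached an unadjusted but no adjusted p under 0.05 (Fads3, chr19:10041298-10041547, plus strand, and Ebp, chrX:8193513-8193762, minus strand) and the member with the sterol element core (Hmgcs1, chr13:119690101-119690350, plus strand). For Fasn and Fads3 this is an internal start, so the printed bases lie within the annotated gene. Capitals mark CCAAT on either strand, read as ATTGG where it lies on the other strand, and TCACNCCAC.
Fasn: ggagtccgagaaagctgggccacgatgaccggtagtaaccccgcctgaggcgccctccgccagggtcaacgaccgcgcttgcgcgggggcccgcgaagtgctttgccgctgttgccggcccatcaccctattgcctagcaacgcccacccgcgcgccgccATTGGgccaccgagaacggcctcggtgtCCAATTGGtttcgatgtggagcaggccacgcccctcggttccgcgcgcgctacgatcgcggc
Fads3: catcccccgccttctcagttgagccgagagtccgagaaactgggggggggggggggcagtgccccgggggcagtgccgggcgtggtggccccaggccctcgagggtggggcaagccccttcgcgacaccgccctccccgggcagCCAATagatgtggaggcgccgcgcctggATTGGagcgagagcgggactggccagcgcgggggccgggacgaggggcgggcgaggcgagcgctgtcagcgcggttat
Ebp: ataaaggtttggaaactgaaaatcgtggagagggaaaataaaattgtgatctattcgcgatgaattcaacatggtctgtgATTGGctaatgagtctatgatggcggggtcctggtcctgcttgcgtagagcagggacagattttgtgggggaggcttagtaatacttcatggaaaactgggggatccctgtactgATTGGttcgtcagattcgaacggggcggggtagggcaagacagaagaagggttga
Hmgcs1: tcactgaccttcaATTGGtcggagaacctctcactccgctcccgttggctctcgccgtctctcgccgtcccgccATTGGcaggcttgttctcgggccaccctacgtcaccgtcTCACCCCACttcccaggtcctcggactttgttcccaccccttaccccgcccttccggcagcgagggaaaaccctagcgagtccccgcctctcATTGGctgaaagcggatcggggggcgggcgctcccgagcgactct
Fads3 and Ebp held 2 CCAAT each in this stretch, and Fasn held 3, of which 2 overlap on opposite strands.

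Levels were compared between genes as CPM per kilobase of the longest RefSeq-matched transcript. In wild-type libraries the highest level was that of Scd2, a stearoyl-CoA desaturase that makes monounsaturated fatty acids and is the main brain form, at 190.3 ± 7.72 CPM per kb (SD, n = 6). Hmgcs1, which makes HMG-CoA at the head of the mevalonate pathway, followed at 98.5 ± 2.68, Fads1 at 69.1 ± 4.03 and Fdps, which makes farnesyl diphosphate, at 59.1 ± 4.96. Each of these 4 differed from the next by more than the SD of either. Scd1, Srebf2, Pmvk, Acly and Msmo1 came next, between 31.9 and 30.2 CPM per kb, and could not be ordered within their spread. Fasn stood at 16.5 ± 1.67 CPM per kb, near Cyp51 (17.1 ± 0.827) and Elovl6 (17.8 ± 2.63). The lowest levels were those of Lss, which closes the sterol ring (2.36 ± 0.256), and Acacb, the acetyl-CoA carboxylase of mitochondria (0.980 ± 0.250), the latter 194-fold below Scd2. In Fmr1-/y libraries the 5 highest members came in the same order, from Scd2 at 205 ± 24.1 to Scd1 at 35.6 ± 5.10 CPM per kb. Acacb had the fewest reads of any member in a single library, 222. Some levels are uncertain because transcripts of other genes share their sequence. Of all 50-base stretches, 86.4% in Fdps, 55.4% in Acaca, 21.3% in Idi1 and 10.9% in Fdft1 also occur in other genes' transcripts, against none in 23 members.

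**Figure D1:**
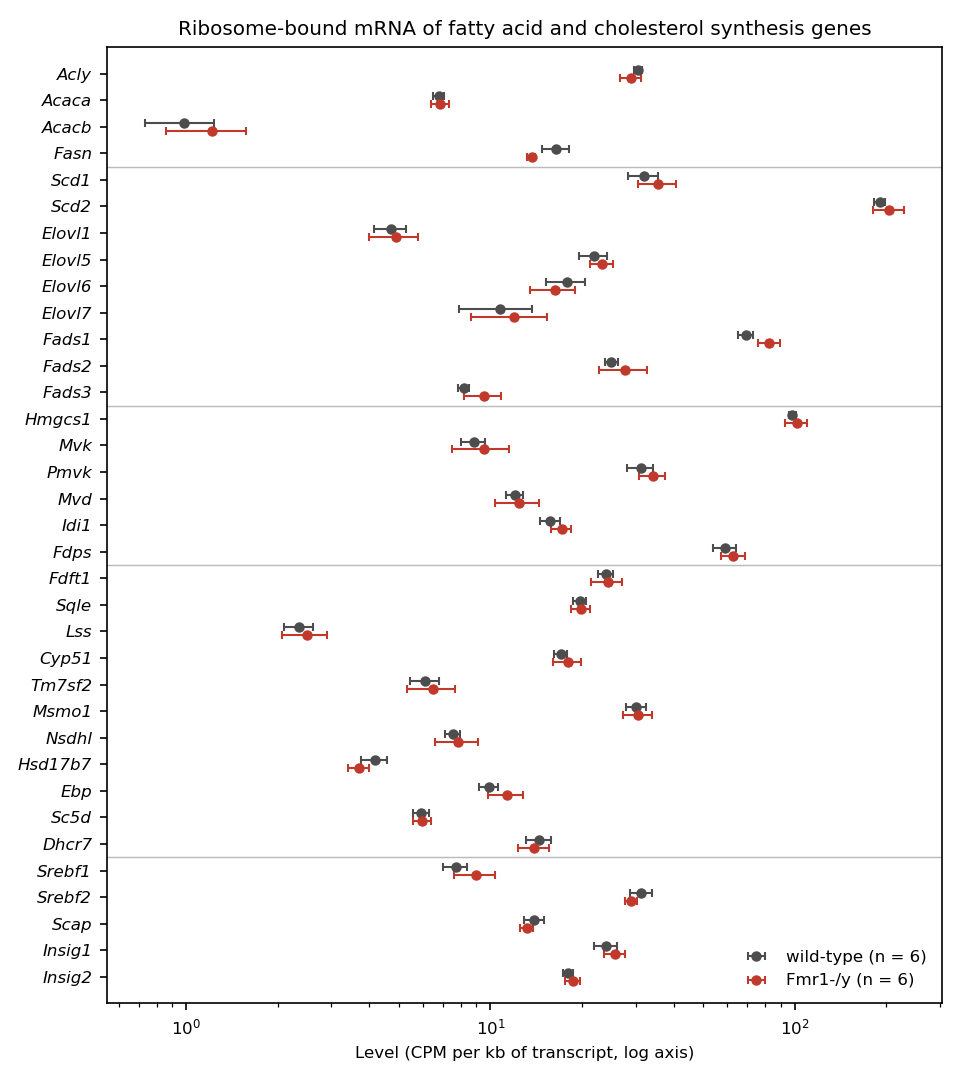
Mean level of each of the 35 genes in CPM per kilobase of transcript (log axis), for 6 wild-type (grey) and 6 Fmr1-/y (red) libraries, with bars of 1 SD, in order of role. Scd2 and Hmgcs1 stand highest and Acacb lowest in both genotypes, and for most genes the bars of the genotypes overlap.

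Between the genotypes, the levels of these genes were close. In Fmr1-/y libraries, 25 of 35 members had a mean CPM between 90% and 110% of wild-type, a share not computed for all genes. The libraries of the genotypes overlapped in 33 members, with 1 member separated in each direction. Over all genes tested, all Fmr1-/y libraries lay below all wild-type libraries in 0.41% of genes and above them in 0.213%. The quasi-likelihood test of edgeR, with p-values adjusted over all 17823 genes by the Benjamini-Hochberg method, gave 0 of 35 members an adjusted p under 0.05 (smallest 0.216), where 0.0224% of all genes tested did. At an unadjusted p under 0.05 there were 5 members, or 14.3%, against 7.96% of all genes. Fasn had a value below 0, where 3.67% of all genes were called in that direction, and Fads1, Fads3, Ebp and Srebf1 had values above 0, where 4.29% were. DESeq2's Wald test on the same counts gave an adjusted p under 0.05 for 2 members, Fasn and Fads1, where 0.471% of all genes passed. The fitted difference was above 0 for 28 members (80.0%) against 51.4% of all genes, and its median over the members was 0.075 on the log2 scale against 0.004. This median was 0.041 without Fmr1-/y library 1, 0.043 without Fmr1-/y library 5 and 0.038 without Fmr1-/y libraries 1 and 2, where 11 members had a value below 0. No set test was run on these shares. Each library pools the RNA of many tagged cells, so that fewer cells of a type and less RNA per cell cannot be told apart.

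**Figure D2:**
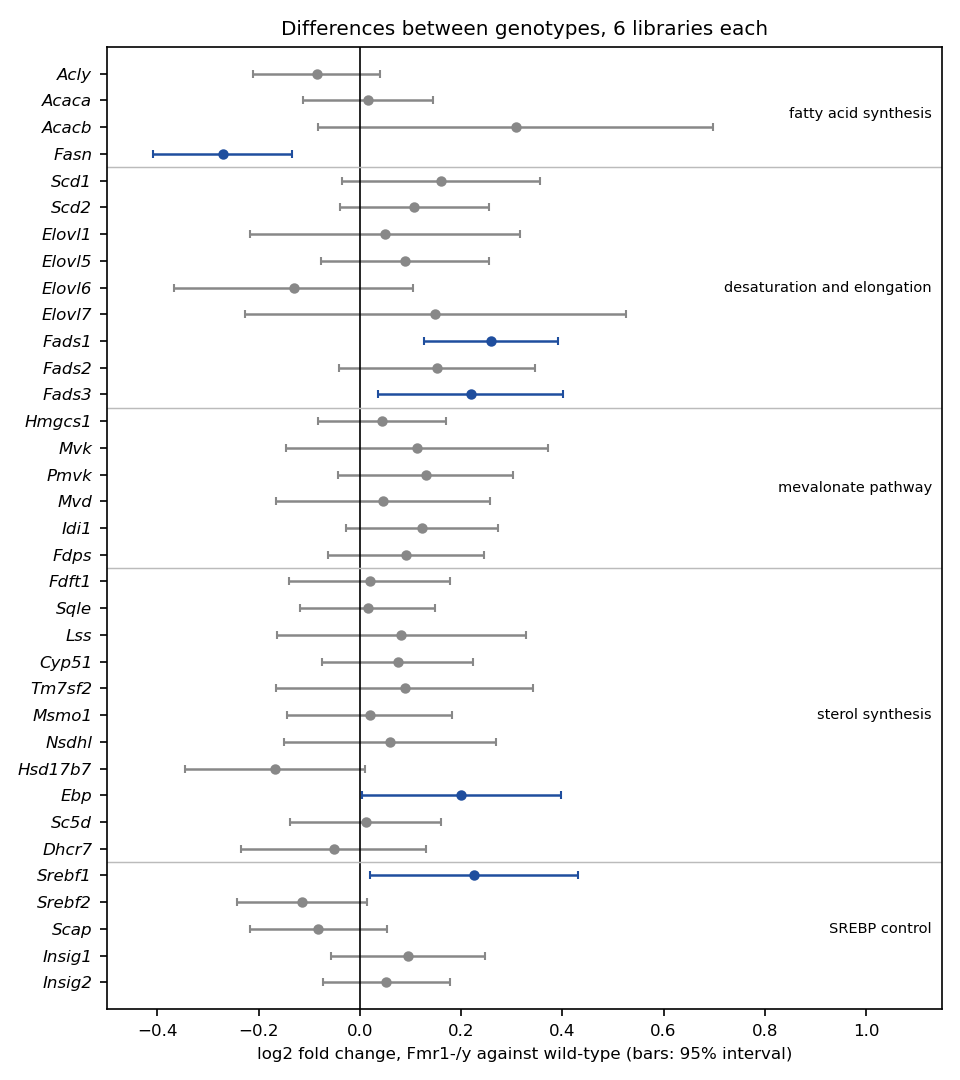
Fitted log2 fold change of each gene in Fmr1-/y against wild-type libraries (edgeR, 6 libraries each), with 95% intervals, in order of role. Blue marks the 5 genes with an unadjusted p under 0.05, of which Fasn lies below 0 and Fads1, Fads3, Ebp and Srebf1 above; none passed after adjustment over all genes.

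Fatty acid synthesis was represented by Acly, which splits citrate into acetyl-CoA, the carboxylases Acaca and Acacb, and Fasn, which builds the chain. Fasn (Entrez 14104, chr11:120805958-120825166) was the lowest of the 35 relative to wild-type. From these same libraries and with DESeq2, the study lists it among the FMRP-bound mRNAs that were downregulated in Fmr1-/y mice. Its lower level was therefore known before this comparison. The level of Fasn in the wild-type libraries 1 to 6 was 186, 175, 144, 161, 178 and 149.9 CPM. In the Fmr1-/y libraries 1 to 6 it was 132, 141, 143, 135, 138 and 134 CPM. Every Fmr1-/y library lay below every wild-type library, though by a narrow margin (highest 142.8 against lowest 143.7 CPM), and the wild-type libraries spread more widely. Such a separation in this direction was found in 0.41% of all genes tested. The mean was 137.2 ± 4.17 CPM against 165.5 ± 16.8 CPM (SD, n = 6 each), or 82.9% of wild-type. The log2 fold change was -0.27 (SE 0.065, 95% interval -0.41 to -0.13), with an unadjusted p of 0.000642 that ranked 52 among all genes in edgeR's test. The adjusted p was 0.216 in edgeR's test and 0.0323 in DESeq2's. Wfs1, the gene whose promoter drives the Cre, differed by -0.27 (log2 scale, edgeR adjusted p 0.410), the lowest value of the 7 CA1 markers. All 7 were below 0 (51.4% of all genes were above 0), up to -0.01 for Slc17a7. An unadjusted p under 0.05 was found for 2 of them, against 3.67% of all genes in this direction. The 7 CA1 markers had a mean log2 CPM lower by 0.13 (range 9.01 to 9.41 in wild-type and 8.77 to 9.23 in Fmr1-/y libraries, exact permutation p = 0.158). The marker difference was -0.075 without Fmr1-/y library 4. Their part in the difference of Fasn was not tested.

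The other 3 genes of this step showed no difference beyond their spread. Acly held 133, 138, 134, 131, 139 and 141 CPM in the wild-type libraries 1 to 6. It held 135, 126, 115, 138, 137 and 117 CPM in the Fmr1-/y libraries. These values overlapped, and the log2 fold change was -0.09 (95% interval -0.21 to 0.04). Acaca, which makes malonyl-CoA for synthesis, was at 61.6 ± 4.16 CPM in Fmr1-/y against 61.0 ± 2.68 CPM in wild-type libraries, with an interval of -0.11 to 0.14, although its counts may include reads of a related sequence. Acacb, whose malonyl-CoA restrains fatty acid entry into mitochondria, was at 8.31 ± 2.12 and 10.3 ± 3.01 CPM, and its interval was wide, from -0.08 to 0.70.

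**Figure D3:**
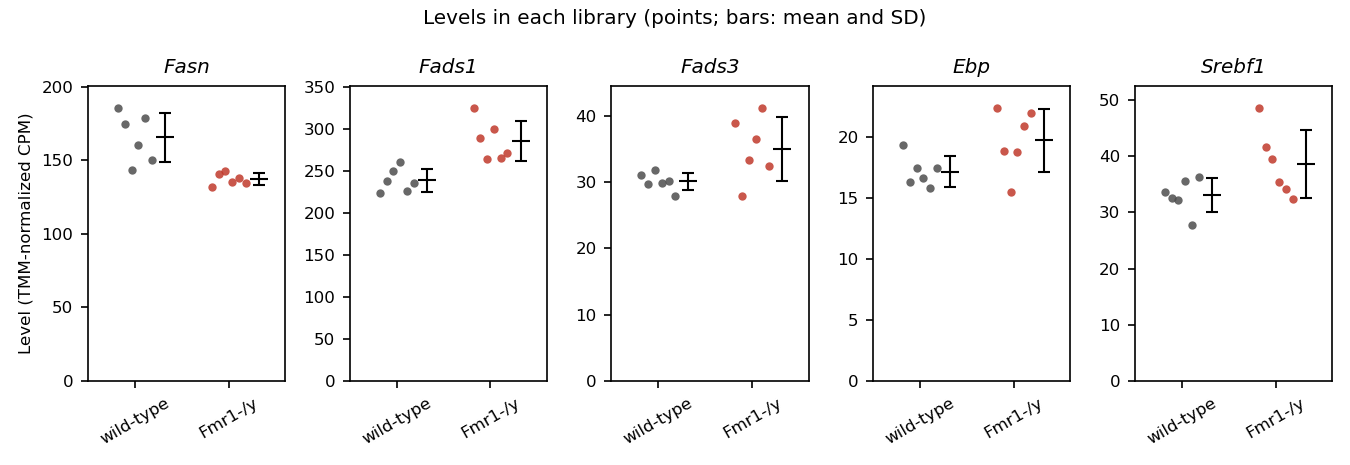
Level of Fasn, Fads1, Fads3, Ebp and Srebf1 in each library (TMM-normalized CPM, axes from 0), with the mean and SD of the 6 wild-type (grey) and 6 Fmr1-/y (red) libraries beside the points. The genotypes separate for Fasn, lower in Fmr1-/y, and for Fads1, higher, and overlap for the other 3 genes.

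Among the 9 genes of desaturation and elongation, 8 had a fitted difference above 0 (51.4% of all genes did), with a median of 0.149 on the log2 scale, and 2 passed an unadjusted p of 0.05 (7.96% of all genes). The median was 0.051 without Fmr1-/y library 1 and 0.081 without libraries 1 and 2 of that genotype. It was 0.057 with non-neuronal markers (astrocyte, oligodendrocyte, microglial and endothelial) as a covariate. Fads1 (Entrez 76267, chr19:10182877-10196874), the desaturase for one of the last steps to arachidonic acid and eicosapentaenoic acid, had the clearest difference. It held 224, 238, 249.5, 260.4, 226 and 236 CPM in the wild-type libraries 1 to 6. It held 325, 289, 264, 299.7, 265 and 272 CPM in the Fmr1-/y libraries. Every Fmr1-/y library lay above every wild-type library, as it did for 0.213% of all genes tested. Fads1 stood at 119.7% of wild-type (285.9 ± 23.8 against 239 ± 13.9 CPM). The log2 fold change was 0.26 (SE 0.063, 95% interval 0.13 to 0.39), with an unadjusted p of 0.000702 that ranked 55 among all genes in edgeR's test. Its adjusted p was 0.225 in edgeR's test and 0.0263 in DESeq2's.

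Fads1, Fads2 and Fads3 lie side by side on chromosome 19. Fads3 (chr19:10040855-10060113), a relative that acts on sphingoid bases, held 31.1, 29.8, 31.85, 29.8, 30.2 and 28.0 CPM in the wild-type libraries. It held 38.9, 27.9, 33.3, 36.5, 41.2 and 32.3 CPM in the Fmr1-/y libraries, so that library 2 lay below all wild-type libraries and the other 5 above them. The log2 fold change was 0.22 (SE 0.086, edgeR adjusted p 0.512). Fads2 (chr19:10062765-10101503), which takes the first desaturation step of polyunsaturated fatty acids, was at 87.5 ± 15.6 CPM in Fmr1-/y against 78.7 ± 3.95 CPM in wild-type libraries. Its log2 fold change was 0.15, with an interval of -0.04 to 0.35, and Fmr1-/y library 1 alone reached 117.2 CPM where the other 5 lay between 75.8 and 89.9 CPM. Without that library the log2 fold change was 0.051, without libraries 1 and 2 it was 0.032, and with the non-neuronal covariate 0.057.

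The stearoyl-CoA desaturases and the elongases showed no difference beyond their spread. Scd2 held 1065.5, 1023, 995, 1047, 994 and 1102 CPM in the wild-type libraries and 1348, 1186, 977, 1067, 1090.4 and 1042.5 CPM in the Fmr1-/y libraries. These overlapped, with a log2 fold change of 0.11 (95% interval -0.04 to 0.26). Scd1, a second stearoyl-CoA desaturase, was at 154 ± 17.4 and 172 ± 24.6 CPM, a log2 fold change of 0.16 (-0.04 to 0.36). Elovl5, which elongates polyunsaturated fatty acids, was at 64.6 ± 5.53 CPM in Fmr1-/y against 60.8 ± 6.48 CPM in wild-type libraries. Elovl6, which extends palmitate, was the one gene of this group with a value below 0 (log2 fold change -0.13, interval -0.37 to 0.11). For Elovl1 and Elovl7, which make very long saturated chains, the log2 fold changes were 0.05 and 0.15, and the interval of Elovl7 ran from -0.23 to 0.53.

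Over the 17 enzymes of the mevalonate pathway and the sterol branch, 15 fitted differences were above 0 and 2 below, where 51.4% of all genes were above 0. An unadjusted p under 0.05 was found for 1 of the 17, against 7.96% of all genes, and the median was 0.06 on the log2 scale. Their log2 fold changes ran from -0.17 to 0.20. The 95% intervals of all 17 lay between -0.35 and 0.40, that is, between 1.27-fold lower and 1.32-fold higher in Fmr1-/y libraries, taken one gene at a time.

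In the mevalonate pathway all 6 values were above 0 (51.4% of all genes were), between 0.04 and 0.13 on the log2 scale. None had an unadjusted p under 0.05, against 7.96% of all genes. Their median of 0.102 was 0.066 without Fmr1-/y library 1, 0.056 without Fmr1-/y library 5 and 0.032 without Fmr1-/y libraries 1 and 2. Hmgcs1 held 334, 348, 330.1, 353, 335 and 347 CPM in the wild-type libraries 1 to 6. It held 378, 353, 299, 368, 374 and 337 CPM in the Fmr1-/y libraries. Both ends of the range belonged to Fmr1-/y libraries, and the log2 fold change was 0.04 (95% interval -0.08 to 0.17). The kinases Mvk and Pmvk, which phosphorylate mevalonate in turn, had log2 fold changes of 0.11 and 0.13, and Mvd, the decarboxylase that follows them, 0.05. For Idi1, the isomerase that balances the isoprenoid units, and Fdps the log2 fold changes were 0.12 and 0.09, and both genes share sequence with other transcripts.

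In the sterol branch 9 of 11 values were above 0 (51.4% of all genes were), with a median of 0.019 on the log2 scale. Without Fmr1-/y library 1 or without wild-type library 3, 6 of 11 were above 0. Ebp (Entrez 13595, chrX:8185329-8193512), an isomerase that shifts a ring double bond, was the one gene here with an unadjusted p under 0.05 (7.96% of all genes had one). It held 19.4, 16.3, 17.5, 16.7, 15.8 and 17.5 CPM in the wild-type libraries and 22.4, 18.9, 15.5, 18.8, 20.9 and 22.02 CPM in the Fmr1-/y libraries. The groups overlapped, since Fmr1-/y library 3 was the lowest of the 12. The log2 fold change was 0.20 (SE 0.093, edgeR adjusted p 0.621). Hsd17b7, a ketosteroid reductase of the demethylation steps, had the lowest value (log2 fold change -0.17, 95% interval -0.35 to 0.01, 17.1 ± 1.38 CPM in Fmr1-/y against 19.2 ± 1.85 CPM in wild-type libraries).

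The other sterol enzymes lay closer to 0. Msmo1, which oxidises the methyl groups of the ring, was the member of this branch with the highest level per kb and held 60.01, 66.1, 56.5, 67.6, 57.0 and 63.2 CPM in the wild-type libraries. It held 73.9, 64.6, 53.2, 63.5, 61.4 and 58.6 CPM in the Fmr1-/y libraries. Its log2 fold change was 0.02, with the highest and the lowest value both in Fmr1-/y libraries. Fdft1 (squalene synthase), Sqle (squalene epoxidase) and Sc5d (a sterol desaturase) had log2 fold changes of 0.02, 0.02 and 0.01. For Lss, Cyp51, which removes a methyl group from lanosterol, and the sterol reductase Tm7sf2 they were 0.08, 0.07 and 0.09. Nsdhl, a dehydrogenase of the demethylation steps, was at 0.06, and Dhcr7, whose reaction yields cholesterol itself, at -0.05.

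Of the 5 genes of SREBP control, 1, Srebf1, had an unadjusted p under 0.05, where 7.96% of all genes did. Srebf1 (Entrez 20787, chr11:60199084-60224186), which mainly serves fatty acid synthesis, held 33.7, 32.6, 32.2, 35.5, 27.8 and 36.3 CPM in the wild-type libraries. It held 48.6, 41.7, 39.5, 35.3, 34.1 and 32.4 CPM in the Fmr1-/y libraries, 3 of which lay within the wild-type range. The log2 fold change was 0.23 (SE 0.097, edgeR adjusted p 0.573). Srebf2, which mainly serves cholesterol synthesis, stood above Srebf1 per kb in wild-type libraries (31.4 ± 2.61 against 7.68 ± 0.706 CPM per kb). It held 178, 157, 145, 146, 171 and 158 CPM in the wild-type libraries and 143, 151, 144, 139.9, 147 and 158 CPM in the Fmr1-/y libraries. Its log2 fold change was -0.11 (95% interval -0.24 to 0.01), and the groups overlapped. Scap, the escort, was at -0.08, and the retention proteins Insig1 and Insig2 were at 0.10 and 0.05, with intervals that included 0.

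Among the Fmr1-/y libraries, library 1 stood apart. It was the highest of the 12 for 16 of 35 members and lay above the gene's own mean for 30 of them. The median deviation of the members from their own means was 0.146 on the log2 scale in this library, while that of all genes tested was 0.008. In the other 11 libraries the members' median lay between -0.073 and 0.072. The deviation of library 1 was 0.318 for desaturation and elongation and 0.205 for the mevalonate pathway, but its Fasn was the lowest of the 12 libraries. Without this library 2 members, Fasn (log2 fold change -0.26) and Fads1 (0.22), kept an unadjusted p under 0.05, or 5.71% against 6.36% of all genes.

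**Figure D4:**
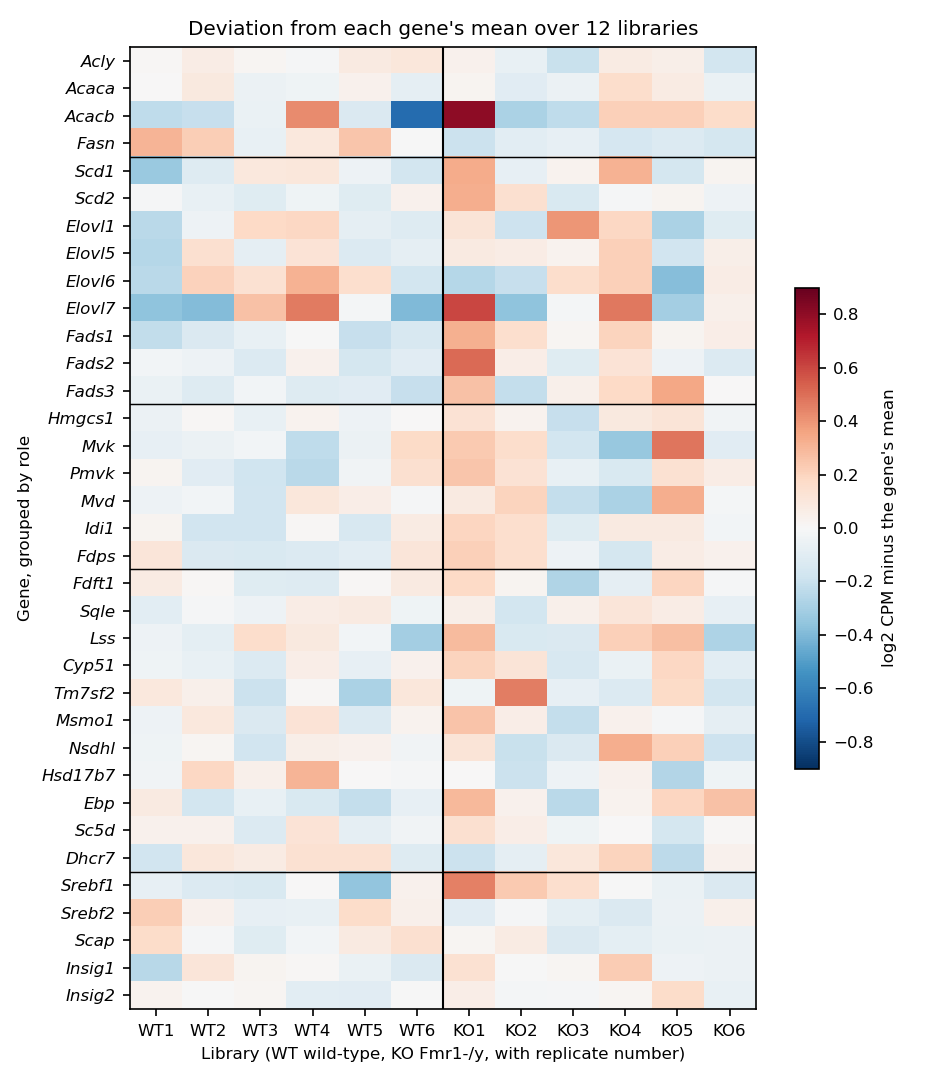
Deviation of each gene (log2 CPM) from its own mean over the 12 libraries, with genes in order of role and libraries as columns, red above and blue below the mean. The column of Fmr1-/y library 1 is red for most genes, and the Fasn line is blue in all 6 Fmr1-/y columns.

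Markers of other cell types differed between the libraries as well. All 9 astrocyte markers on the list had a higher fitted level in Fmr1-/y libraries (51.4% of all genes did). An unadjusted p under 0.05 was found for 5 of them, against 4.29% of all genes in this direction. Their mean log2 CPM was 6.61 to 6.91 in wild-type and 6.82 to 7.39 in Fmr1-/y libraries, a difference of 0.22 (exact permutation p = 0.0390, adjusted p = 0.156 over 8 lists, where 0.00216 is the smallest p that 6 against 6 can give). The 9 genes summed to 1552 to 2473 CPM in Fmr1-/y against 1371 to 1782 CPM in wild-type libraries. Fmr1-/y libraries 1 and 2 had the highest astrocyte values, with 7.39 in library 1, and also the highest Srebf1. Fmr1-/y library 3 had the next highest Srebf1 (39.5 CPM) but the lowest astrocyte value of its genotype (6.82). Endothelial markers (5 of 5 higher, difference 0.32, exact permutation p = 0.0433, adjusted p = 0.156) and choroid plexus markers (4 of 4 higher, difference 0.43, exact permutation p = 0.0584, adjusted p = 0.156) had values above 0 as well, the latter summing to 6211 to 11625 CPM in wild-type and 8140 to 17108 CPM in Fmr1-/y libraries. Oligodendrocyte markers differed by -0.15 (exact permutation p = 0.236), dentate granule cell markers by -0.13 (p = 0.370 in the same exact test), microglial markers by 0.011 (p = 0.909, same exact test) and interneuron markers by -0.03 (p = 0.851, same exact test). No marker on these lists was at 0 reads in any library.

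The non-neuronal covariate was the mean log2 CPM over the astrocyte, oligodendrocyte, microglial and endothelial markers. It left out the choroid plexus markers, and its astrocyte and oligodendrocyte markers differed in opposite directions (0.22 and -0.15). With this covariate, 4 members (11.4%) had an unadjusted p under 0.05 in edgeR's test, against 6.89% of all genes. Fasn had a log2 fold change of -0.27 (unadjusted p 0.00183 in edgeR's test), Fads1 of 0.21 (p 0.00219) and Fads3 of 0.23 (p 0.0284). The remaining member was Hsd17b7, at -0.20 (edgeR adjusted p 0.702). None of these had an adjusted p under 0.05. Srebf1 (0.13, p 0.150) and Ebp (0.19, p 0.0804) had an unadjusted p over 0.05 there. A comparison without Fmr1-/y libraries 1 and 2 was added after the data were seen. There, Fasn had a log2 fold change of -0.27 (p 0.00346 in edgeR's test), Fads1 of 0.20 (p 0.00659) and Fads3 of 0.25 (p 0.00778). These 3 of 35 members compare with 6.94% of all genes in that comparison. Srebf1 was at 0.10 (p 0.290) and Ebp at 0.17 (p 0.129). Libraries 1 and 2 held the highest Srebf1 and library 1 the highest Ebp, so lower values of both genes without them followed in part from the choice.

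**Figure D5:**
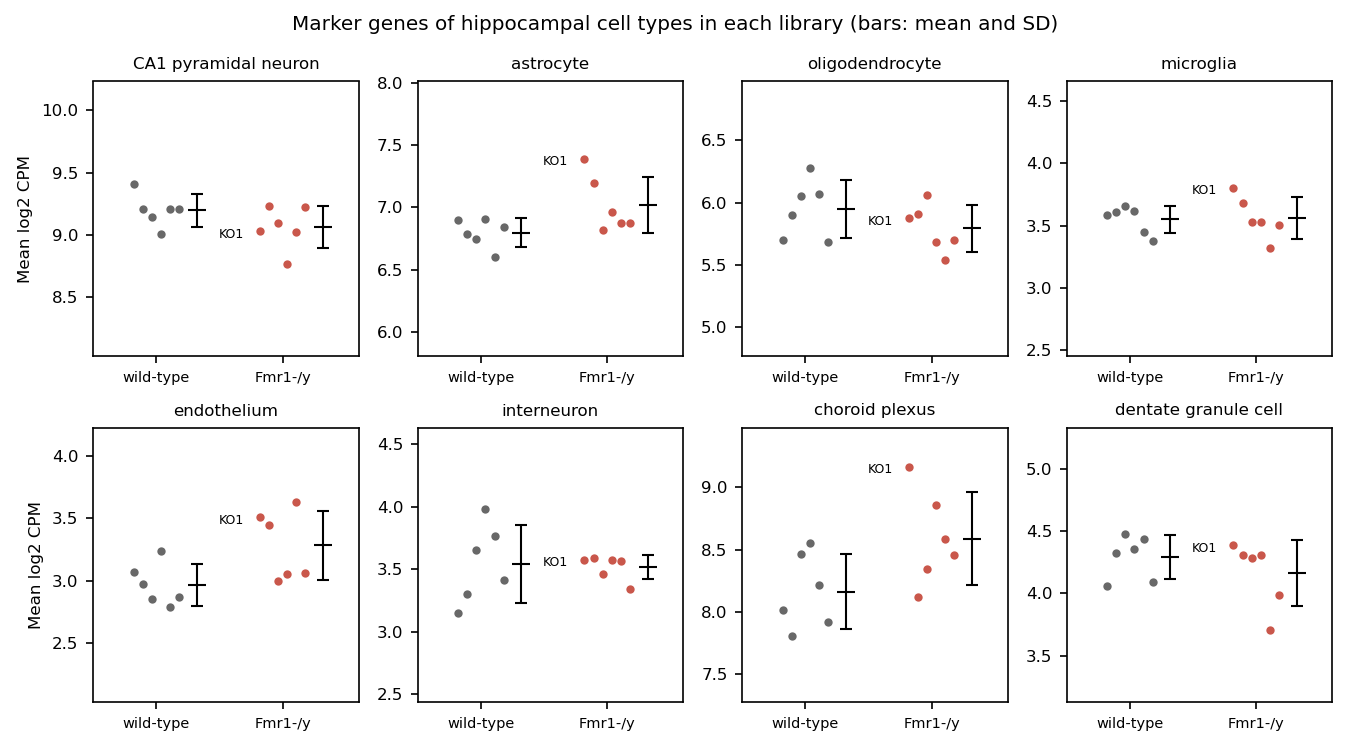
Mean log2 CPM over the marker genes of 8 hippocampal cell types in each of 6 wild-type (grey) and 6 Fmr1-/y (red) libraries, with the mean and SD of each genotype. Fmr1-/y library 1, which is named in each panel, is the highest of its group for astrocyte, microglia, choroid plexus and dentate granule cell markers.

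Around these 35 genes, 71 further genes of lipid metabolism were examined in 5 lists, of which 70 passed the filter. None passed an adjusted p of 0.05 in edgeR's test and 11 had an unadjusted p under 0.05, all with values above 0, where 7.96% of all genes had such a p and 4.29% in this direction. With the non-neuronal covariate 8 had an unadjusted p under 0.05, against 6.89% of all genes. Without it, the median log2 fold change over the 70 was 0.018. Of 7 other genes of isoprenoid and sterol synthesis, 0 had an unadjusted p under 0.05, and the median was -0.055. Among those with the smallest p were Ggps1, which makes geranylgeranyl diphosphate, and Nus1, a subunit of the enzyme for dolichol, both with a log2 fold change of -0.09. Of 11 genes of SREBP processing and turnover, 0 had an unadjusted p under 0.05, and Paqr3, which tethers Scap at the Golgi, and Prkaa1, a catalytic subunit of AMP-activated kinase, were at -0.16 and -0.05.

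Among 17 genes of sterol uptake, transport and turnover, 1 had an unadjusted p under 0.05, where 7.96% of all genes did. This was Npc2, which hands cholesterol out of the lysosome, at 108 ± 17.9 CPM in Fmr1-/y against 82.2 ± 6.58 CPM in wild-type libraries. Every Fmr1-/y library (94.0 to 140.0 CPM) lay above every wild-type library (74.8 to 91.7 CPM). Its log2 fold change was 0.40 (SE 0.092), with an adjusted p of 0.199 in edgeR's test and 0.0213 in DESeq2's. The study, from these same libraries and with DESeq2, already lists Npc2 among its differentially regulated genes, so this difference was known before this comparison. The lipoprotein receptor Lrp1 and the sterol exporter Abcg1 were at -0.11 and -0.12. Of the 17 values 12 were below 0, where 51.4% of all genes were above 0.

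Of 11 genes of fatty acid breakdown, 10 had a fitted difference above 0 (51.4% of all genes did), with a median of 0.199 on the log2 scale. An unadjusted p under 0.05 was found for 5, against 4.29% of all genes in this direction. Acadl and Acadvl, dehydrogenases for long-chain acyl-CoA in mitochondria, had log2 fold changes of 0.39 (31.8 ± 2.83 to 41.8 ± 8.98 CPM, edgeR adjusted p 0.325) and 0.25 (edgeR adjusted p 0.326). Mlycd, which removes malonyl-CoA, was at 0.25 (edgeR adjusted p 0.417), and Hadha and Hadhb, the subunits of the trifunctional protein, were the other two, named after their values were seen. With the non-neuronal markers as a covariate 3 of the 11 had an unadjusted p under 0.05, against 6.89% of all genes. Without Fmr1-/y libraries 1 and 2 there were 5, against 6.94% of all genes. Mitochondrial fatty acid breakdown is known to be more active in astrocytes than in neurons, and the part of the astrocyte markers in these values was not tested further. Of 24 tested genes for other steps of fatty acid synthesis and activation, 5 had an unadjusted p under 0.05, all with values above 0, where 4.29% of all genes did. There were 2 without Fmr1-/y library 5 or wild-type library 3, and 3 without Fmr1-/y library 1 or 2 or wild-type library 5. With the non-neuronal covariate there were 3, against 6.89% of all genes. The 5 included Hsd17b12 and Ptplad1, both enzymes of the elongation cycle (0.18 and 0.15), and Mecr, a reductase of mitochondrial fatty acid synthesis (0.24), with edgeR adjusted p of 0.503 to 0.531. The other two, named after their values were seen, were Acsl6, which activates fatty acids, and Dgat1, which makes triglyceride.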

How the data were processed

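Libraries of RNA on HA-tagged ribosomes, 6 wild-type and 6 Fmr1-/y, were sequenced as stranded single-end reads of 50 bases. According to the study's methods, the authors aligned the reads with TopHat 2.1.1 and Bowtie 2.2.8 to mm10 with UCSC gene models, dropped alignments with more than 3 mismatches and counted reads per gene on the opposite strand with HTSeq 0.6.1p1 in union mode. The deposited values are these raw counts per gene, without normalization. How reads with several matches were handled is not given in the sources used here, so counts of genes with near-identical copies are uncertain. Libraries were sequenced 4 to a lane, and which ones shared a lane is not given there either.

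Columns were assigned to genotypes by the sample titles. A total of 15 reads across the 12 libraries was required of a gene, and edgeR 4.0.16 in R 4.3.3 was used for TMM normalization and the quasi-likelihood test with no block or covariate, with Benjamini-Hochberg adjustment over all genes tested and a threshold of 0.05. Standard errors (SE) of log2 fold changes were derived from the F statistic. TMM-normalized CPM give the levels, and log2 CPM for marker lists and deviations used a prior count of 2. DESeq2 1.42.0 was an alternative, as DESeq2 was the study's own test. Further alternatives were other scalings and filters, a replicate block, each library left out and a covariate from non-neuronal markers. This covariate covered astrocyte, oligodendrocyte, microglial and endothelial markers, without choroid plexus markers. The test was tried first on simulated counts with larger changes than any fitted for a member, which does not show what it can detect at the members' size. Marker lists were compared with two-sided exact permutation tests. Coordinates and transcript lengths came from RefSeq and GENCODE on GRCm38, matched by Entrez identifier.

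The members, the pathway lists and the marker lists were chosen with earlier results of these data known. All members are named. Values of every library are given for Fasn, for members with an unadjusted p under 0.05 and for the member with the highest level per kb in each role. Of each further list the 3 genes with the smallest p are named, except that some are not reported here, and others are named as such. Each library is a pool, so p-values measure the spread between pools.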

Additional observations from a re-analysis of the deposited data

Results flagged for a closer look

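For 86 sets of 6 libraries (each of the 35 members and each marker list, in each genotype), the gap between an extreme library and its neighbour was compared with the whole range of the set. It exceeded Dixon's 95% critical value in 2 sets, where chance alone gives about 4.3 in 86. Both were high values of Fmr1-/y library 1. Acacb stood at 15.7 CPM there, against 7.37 to 10.4 CPM in the other 5 Fmr1-/y libraries, and the gap was 0.633 of the range. Fads2 stood at 117.2 CPM, against 75.8 to 89.9 CPM, and the gap was 0.660 of the range.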

How the results depend on the processing

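With DESeq2's Wald test in place of edgeR's, the number of members with an adjusted p under 0.05 went from 0 to 2 (Fasn and Fads1) and that of the further lipid genes from 0 to 1 (Npc2). The other scalings, filters and left-out libraries gave 0 in both. Of the single members' values under the other test, scalings, filters, block, covariate and single left-out libraries, 644 kept direction and side of the threshold, 2 passed it (in DESeq2) and 19 changed sign. The genes that changed sign had log2 fold changes from 0.012 (Sc5d) to 0.089 (Tm7sf2) in the main fit, where the median over the members was 0.075. Without Fmr1-/y libraries 1 and 2, added after the data were seen, 6 members changed sign: Dhcr7 (0.003), Fdft1 (-0.028), Msmo1 (-0.061), Mvd (-0.013), Sc5d (-0.039) and Tm7sf2 (-0.009). With the non-neuronal covariate Msmo1 was at -0.039 and Sc5d at -0.033. With 1 library left out at a time, the log2 fold changes ran from -0.020 to 0.070 for Fdft1, -0.034 to 0.061 for Msmo1, -0.018 to 0.043 for Sc5d, -0.009 to 0.129 for Tm7sf2, -0.034 to 0.108 for Elovl1, -0.015 to 0.037 for Acaca, -0.006 to 0.048 for Sqle, -0.005 to 0.103 for Nsdhl and -0.022 to 0.101 for Mvd. Those of Fasn ran from -0.309 to -0.236 and those of Fads1 from 0.219 to 0.285. The number of members with an unadjusted p under 0.05 ran from 2 to 6 (2 without Fmr1-/y library 1, 3 without wild-type library 2 and 3 without wild-type library 5), and that of members with a value below 0 from 7 to 10, while their median log2 fold change ran from 0.041 to 0.093. The difference of microglial markers ran from -0.037 to 0.059 that of interneuron markers from -0.106 to 0.062, that of CA1 markers from -0.173 to -0.075, that of dentate granule cell markers from -0.175 to -0.038 (without Fmr1-/y library 5) and that of oligodendrocyte markers from -0.209 to -0.088 (without wild-type library 4). The cause of these changes was not tested. The replicate numbers were not taken to pair the pools, since deviations of libraries with the same number correlated at -0.081 to 0.090 over all genes (mean 0.025) and 0 of 12 correlated best with their own number. Over the 35 members these correlations were -0.174 to 0.581 (mean 0.159), and 3 of 12 correlated best with their own number. With the replicate block, 0 members had an adjusted p under 0.05 and 5 an unadjusted one, and 4 genes passed in all. Each member had at least 222 reads in every library, and neither depth nor the number of pools was varied as such.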
